A study of Mus musculus with 2 samples.

Results

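The mitochondrial respiratory chain and ATP synthase were followed in mice lacking PKGI, a protein kinase that cGMP activates and the gene Prkg1 encodes. The 81 genes were found by their names on the arrays, out of 19503 named genes: Nduf genes (complex I, 36 genes), Sdha to Sdhd (complex II, 4), Uqcr genes and Cyc1 (complex III, 8), Cycs (cytochrome c, 1), Cox genes with a digit (complex IV, 14), and Atp5 genes (complex V, 15). Cox6a2, Cox7a1 and Cox8b, the complex IV forms of heart and skeletal muscle, form a group of 3 of their own. Another 8 genes that share these names, mostly assembly factors, were kept apart. Expression was read on 2 two-colour arrays. The tissue array set PKGI KO brown adipose tissue (BAT, a fat that makes heat), in the red dye Cy5, against WT littermate tissue, in the green dye Cy3. The adipocyte array set brown adipocytes grown in culture from PKGI KO precursors, in Cy3, against those grown from WT littermate precursors, in Cy5. All samples were of the C57BL/6N background. The BAT was untreated, and the adipocytes had been differentiated in vitro. The sources used here do not say which part of Prkg1 is deleted.

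In the respiratory chain, complexes I and II take electrons from NADH and succinate and pass them through ubiquinone to complex III, and cytochrome c carries them on to complex IV, which reduces oxygen. Complexes I, III and IV pump protons, and complex V, the ATP synthase, uses the gradient to make ATP. Brown fat is rich in the electron-carrying complexes, and its uncoupling protein Ucp1 lets protons return without ATP synthesis, which releases heat.

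Each comparison rests on 1 array without replicates, which allows no test between genotypes, and values describe these RNA samples only. Dyes were not swapped, and on each array a gene's dye bias and its difference between genotypes cannot be told apart. Values below are log2 ratios of KO over WT after loess, set against the middle of all genes, unless they are called signals, which are log2 intensities of 1 channel. A gene is called "at least 2-fold" different where its log2 ratio lies at or beyond 1 or -1. Repeated spots of the same probe differed by an SD of 0.098 in the tissue hybridisation (185 probes) and 0.090 in that of the adipocytes (195 probes), which covers technical error within an array only.

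The Prkg1 probes were lower in KO on both arrays on average, at -0.84 in the tissue (SD 0.73 over 3 probes) and -1.03 in the adipocytes (SD 1.24 over 3 probes). Restricted to the 2 probes with both channels well above background, the means were -1.26 and -1.63. The paired samples also differed in sex-linked and cell type transcripts, and which of these differences follow from genotype was not tested. Among sex-linked transcripts, Xist was at 4.41 in the tissue and at -3.36 in the adipocytes. The Y-linked Eif2s3y was at -6.40 in the tissue, where its KO signal was dim, and at -0.12 in the adipocytes. In the WT culture both gave signals, 10.04 for Xist and 12.37 for Eif2s3y. The sex of the animals, and whether animals were pooled, was not tested. The defining markers of fat cells, a list of 11 genes, summed to a signal of 671012 in KO and 476831 in WT tissue over the 10 genes kept. The median ratio of these markers in the tissue was 0.01, with 5 below 0 and 5 above. In the cultures they summed to 17108 in KO and 246538 in WT over all 11, each of them at least 2-fold lower in KO, with Adipoq at -5.22. Macrophage markers were lower in the KO culture too, with 7 of 10 at least 2-fold lower and a summed signal of 38971.9 in KO and 180882 in WT. Smooth muscle markers were higher there, with 4 of 5 at least 2-fold higher and a summed signal of 158697 in KO and 41288.4 in WT. In such mixed RNA, fewer cells of a type and less RNA per cell cannot be told apart.

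Of the 81 chain genes, 79 were measured on the tissue array (all but Cyc1 and Cox8c), and 80 on the adipocyte array (all but Cox8c, the testis form of a complex IV subunit). A gene counted as measured when a probe was well above background in KO or in WT. The Cyc1 probe was not used on the tissue array because its spot had an outlier flag. Signals of the chain were high, as 76 of its genes lay in the brightest 20% of all genes kept on the tissue array, against 70 for the adipocytes, which describes probe signals and not transcript levels. No chain probe was saturated.

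In the tissue, the chain lay close to the middle of all genes, with a median of -0.06 against 0.00 for all 15616 genes kept. Genes as bright as much of the chain did not centre on 0, as the 157 brightest had a median of 0.20. The 44 chain genes of that brightness had a median of 0.05. The brightest 20% of all genes on the tissue array, which held 76 chain genes, had a median of -0.03. Below 0 were 48 of 79 chain genes, or 60.8%, against 49.5% of all genes. The muscle isoform Cox6a2 was the only chain gene at least 2-fold lower, against a background of 2.44% of all genes, and no chain gene was at least 2-fold higher, against 0.80%. In the adipocytes the chain was lower in KO, with a median of -0.34 against 0.00 for all 15115 genes. The 152 brightest genes there had a median of -0.25, and the 11 chain genes of that brightness had -0.59. The brightest 20% of all genes on that array, which held 70 chain genes, had a median of 0.01. Below 0 were 61 of 80 genes, or 76.2%, against 50.2% of all genes. At least 2-fold lower were 10 of 80, or 12.5%, against 4.17% of all genes, and Cox6a2 was the 1 gene at least 2-fold higher, against 2.49%. The adipocyte and macrophage markers given above moved with this shift of the chain, and their part in it was not tested.

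**Figure D1:**
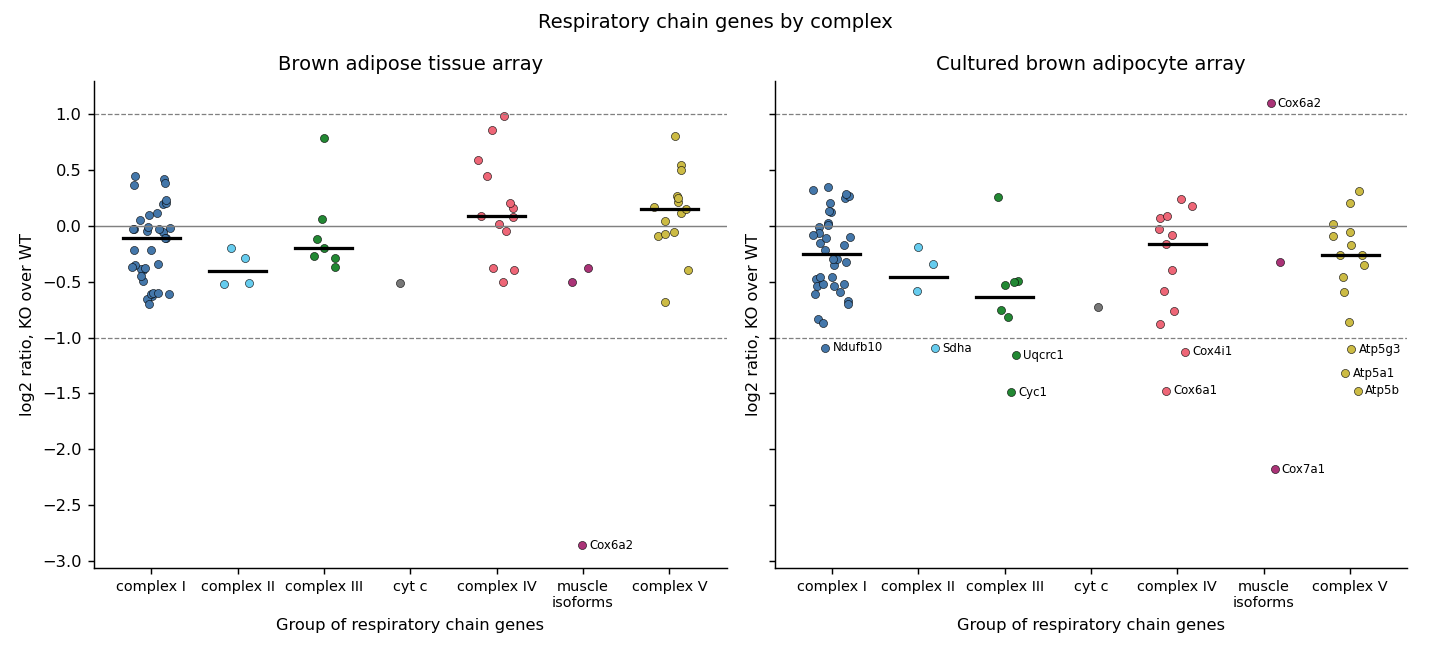
Log2 ratio of KO over WT of each respiratory chain gene kept, by complex, on the tissue array (left) and the adipocyte array (right). Each point is 1 gene measured on 1 array, black bars are medians of groups with more than 3 genes, dashed lines mark 2-fold, and genes at least 2-fold different are named. In the tissue 1 gene, Cox6a2, lies beyond the dashed lines, and in the adipocytes 11 genes do.

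Promoters of 3 of the genes that were lowest in the KO culture are shown because they hold motifs of factors known to drive respiratory genes. A RefSeq promoter of GRCm38.p6 was found for 66 of the 81 chain genes. Each window holds the 250 bases before the annotated start site, and 3 motifs were searched on both strands: GCGCA, any base and GCGC for NRF1, TCAAGGTCA for the estrogen-related receptors (ERR) and CCGGAAGT for ETS factors such as GABP. Capitals mark a match, which in Atp5g3 is the ERR motif read on the other strand (TGACCTTGA) and in the others NRF1.
Sdha, chr13:74350241-74350490, minus strand: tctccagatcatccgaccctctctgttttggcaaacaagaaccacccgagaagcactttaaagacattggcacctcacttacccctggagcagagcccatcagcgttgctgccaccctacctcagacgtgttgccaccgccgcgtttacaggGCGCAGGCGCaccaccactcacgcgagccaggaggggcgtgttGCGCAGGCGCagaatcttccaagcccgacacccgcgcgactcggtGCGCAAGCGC
Cox6a1, chr5:115348959-115349208, minus strand: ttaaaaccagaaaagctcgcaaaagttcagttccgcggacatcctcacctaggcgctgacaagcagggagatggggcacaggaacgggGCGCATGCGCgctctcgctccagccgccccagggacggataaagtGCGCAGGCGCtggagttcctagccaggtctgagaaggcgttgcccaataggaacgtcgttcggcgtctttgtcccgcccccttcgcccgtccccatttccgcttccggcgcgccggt
Atp5g3, chr2:73911327-73911576, minus strand: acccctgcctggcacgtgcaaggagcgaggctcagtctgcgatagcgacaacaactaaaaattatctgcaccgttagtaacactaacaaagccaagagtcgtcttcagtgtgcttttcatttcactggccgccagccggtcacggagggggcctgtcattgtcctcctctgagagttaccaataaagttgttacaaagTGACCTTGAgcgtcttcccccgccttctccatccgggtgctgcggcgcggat

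A gene counted as holding a motif when any of its windows did, as 5 of the 66 chain genes had 2 windows. The NRF1 motif was held by 13 of the 66 chain genes, or 19.7%, against 4.23% of 27025 genes with windows of the same length. Members that hold it spread over the complexes (Ndufa5, Ndufa8, Ndufa11, Ndufb4, Ndufs5, Ndufs6, Sdha, Sdhd, Cox6a1, Atp5c1, Atp5g2, Atp5h and Atp5k). The ETS motif was held by 3 genes (Uqcr, Uqcrh and Atp5h), or 4.55%, against 3.23%, and the ERR motif by 1 (Atp5g3), or 1.52%, against 0.422%. Of the 7 genes at least 2-fold lower in the KO culture that had a window, 2 held the NRF1 motif and 1 the ERR motif. Genes with the NRF1 motif also lay at the upper end on that array, such as Ndufa5 at 0.35 and Atp5g2 at 0.31. A match describes the letters of a window and is no evidence of binding.

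Complex I, the NADH dehydrogenase, had a median of -0.11 in the tissue and -0.25 in the adipocytes. Below 0 were 26 of 36 genes on each array, or 72.2%, against 49.5% of all genes in the tissue and 50.2% in the adipocytes. Most of the 7 listed core subunits of complex I carry the flavin, iron-sulfur clusters or the quinone site. The 7 had medians of -0.21 in the tissue and -0.46 in the adipocytes, and the 29 accessory subunits had -0.05 and -0.17. In the KO culture all 7 core genes were below 0, among them Ndufs7 at -0.61, Ndufs3 at -0.54, Ndufs1 and the flavin subunit Ndufv1 at -0.46, Ndufv2 at -0.10 and Ndufs8 at -0.08. None of them reached 2-fold. In the tissue 6 of the 7 were below 0, and the order was another one. There Ndufs8 was lowest, with a signal of 12.81 in KO and 13.51 in WT (-0.70), then Ndufs1 (-0.45), Ndufv2 (-0.38), Ndufs7 (-0.21), Ndufs3 (-0.11), and Ndufv1 was at 0.05.

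The accessory subunit Ndufb10, part of the membrane arm, was the 1 complex I gene at least 2-fold lower in the KO culture, with a signal of 14.71 in KO and 15.80 in WT (-1.09). In the tissue its single probe was dim, at 6.44 in KO and 6.23 in WT, and not well above background in WT. Its tissue ratio (0.21) thus rests on signals near background. Ndufc2 (-0.87) and Ndufb9 (-0.83) came next in the adipocytes, and both were above 0 in the tissue (0.39 and 0.44). Highest in the KO culture were Ndufa5 (0.35), Ndufa6 (0.32) and Ndufs4 (0.28), a subunit known for its role in human Leigh syndrome. In the tissue the lowest accessory genes were Ndufb2 (-0.65) and Ndufa11 (-0.62), and the highest, after Ndufb9, were Ndufb11 (0.42) and Ndufc2. Ndufab1, the mitochondrial acyl carrier protein, was below 0 on both arrays, at -0.61 in the tissue (SD 0.41 over 2 probes) and -0.70 in the adipocytes.

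Complex II, succinate dehydrogenase, was below 0 with all 4 genes on both arrays. Among all genes, 49.5% were below 0 in the tissue and 50.2% in the adipocytes. The medians of complex II were -0.40 in the tissue and -0.46 in the adipocytes. Sdha, the flavoprotein that oxidises succinate, had a signal of 12.25 in the KO and 13.34 in the WT culture, a ratio of -1.09 (SD 0.20 over 2 probes), and 14.19 in KO and 14.70 in WT tissue (-0.51). Its probes read -1.24 and -0.95 in the adipocytes, so 1 of them was under 2-fold. Sdhb, the iron-sulfur subunit, was at -0.20 in the tissue and -0.34 in the adipocytes. The membrane anchors were at -0.52 and -0.19 for Sdhc and at -0.29 and -0.58 for Sdhd, tissue first.

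Complex III, which passes electrons from ubiquinol to cytochrome c, had a median of -0.64 in the adipocytes. There 7 of its 8 genes were below 0, or 87.5%, against 50.2% of all genes. In the tissue its median was -0.20 with 5 of 7 below 0, or 71.4%, against 49.5%. Cyc1, the cytochrome c1 haem subunit, had a signal of 14.00 in the KO and 15.49 in the WT culture (-1.49, 2.81-fold lower). Uqcrc1, a core protein of the matrix side, had 13.32 in KO and 14.48 in WT (-1.16, SD 0.06 over 2 probes). The Rieske iron-sulfur subunit Uqcrfs1 was at -0.81 and Uqcrc2, the other core protein, at -0.75. Uqcrb, a small subunit, was the 1 gene of the complex above 0 in the culture (0.26), and it was the lowest of the complex in the tissue (-0.37). There Uqcrfs1 was at -0.29, Uqcrc1 at -0.27, Uqcrq at -0.20, Uqcrc2 at -0.12 and Uqcr at 0.06. The hinge protein gene Uqcrh was highest, with a signal of 16.89 in KO and 16.11 in WT (0.79), and was at -0.51 in the adipocytes, where Uqcrq was at -0.53 and Uqcr at -0.49. Cycs, the electron carrier between complexes III and IV, was below 0 on both arrays. It had 14.97 in KO and 15.48 in WT tissue (-0.52), and 13.14 in the KO and 13.87 in the WT culture (-0.72).

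Complex IV, cytochrome c oxidase, had medians of 0.09 in the tissue and -0.16 in the adipocytes, and its genes spread widely. The nuclear genes on the arrays code for the subunits around the catalytic core, which the mitochondrial genome encodes. Cox6a1, the widely used form of subunit VIa, had a signal of 16.45 in the KO and 17.93 in the WT culture (-1.48, 2.78-fold lower), but 17.71 in KO and 16.85 in WT tissue (0.86). Cox4i1, the main form of subunit IV, was at -1.13 in the adipocytes and 0.59 in the tissue. Cox8a, the widely used form of subunit VIII, was at -0.76 and had the highest ratio of the chain in the tissue, 17.41 in KO and 16.43 in WT (0.98). These 3 genes thus read lower in the KO culture and higher in KO tissue, and on both arrays their higher channel was the red one. Cox5a was at -0.87 in the adipocytes, where the KO signal of 1 of 2 probes was not well above background and the other read -1.36, and at 0.09 in the tissue. Cox5b was at -0.58 in the adipocytes and 0.20 in the tissue.

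Other members of complex IV stayed near the middle. Cox7a2, the liver form of subunit VIIa, was at 0.24 in the adipocytes and 0.01 in the tissue, and its relative Cox7a2l, known for its part in supercomplexes, at 0.17 and 0.45. Cox6c was at 0.09 and 0.08 and Cox7b at -0.39 and -0.05, adipocytes first. Cox7c (-0.50), Cox6b1 (-0.39) and Cox6b2 (-0.38), the testis form of subunit VIb, were the lowest in the tissue, and were at -0.08, -0.16 and 0.07 in the adipocytes. Cox4i2, the form of subunit IV known from lung, was near background on both arrays, with a signal of 6.59 in KO and 6.43 in WT tissue.

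The muscle isoforms Cox6a2 and Cox7a1 went apart from their widely used partners on both arrays. Cox6a2 had a signal of 10.73 in KO and 13.59 in WT tissue, which made it 7.27-fold lower (-2.86), while its partner Cox6a1 was at 0.86. In the cultures Cox6a2 went the other way, with 10.71 in KO and 9.61 in WT (1.10, 2.14-fold higher). Skeletal muscle markers lay on the same side as Cox6a2 in the tissue: 20 of 21 were at least 2-fold lower in KO (median -2.62), with a summed signal of 94014.5 in KO and 518281 in WT, and Ckm, muscle creatine kinase, at -2.93. In the cultures Ckm, Ckmt2 and Pvalb were not above background, 18 were kept with a median of -0.13, and 1 of them, Acta1, was at least 2-fold higher (1.52). The part of muscle RNA in the Cox6a2 values was not tested.

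Cox7a1, the muscle and heart form of subunit VIIa, which brown fat also uses, did not share the tissue value of Cox6a2. It had 16.71 in KO and 17.21 in WT tissue (-0.50). In the culture it was the lowest chain gene, with 10.12 in KO and 12.30 in WT (-2.18, 4.53-fold lower), while its partner Cox7a2 was at 0.24. Cox7a1 is a known marker of brown over white fat cells. Of 9 brown fat markers, 7 were below 0 in the same culture (median -1.14), against 50.2% of all genes. Among them Ucp1 was at -3.78 and Cidea at -3.38, while Dio2 was at 0.83. At least 2-fold lower there were 5 of the 9, against 4.17% of all genes. In the tissue the median of the 9 was -0.35. At least 2-fold lower in the tissue were 4 of the 9, against 2.44% of all genes. Cidea (1.01) was the 1 marker at least 2-fold higher in the tissue, against 0.80%. Cox8b, the muscle form of subunit VIII and likewise known from brown fat, had 16.23 in KO and 16.61 in WT tissue (-0.38), but its signals were low in the cultures, 6.93 in KO and 7.25 in WT (-0.32). Its partner Cox8a was at 0.98 in the tissue and, like Cox8b, below 0 in the cultures (-0.76).

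**Figure D2:**
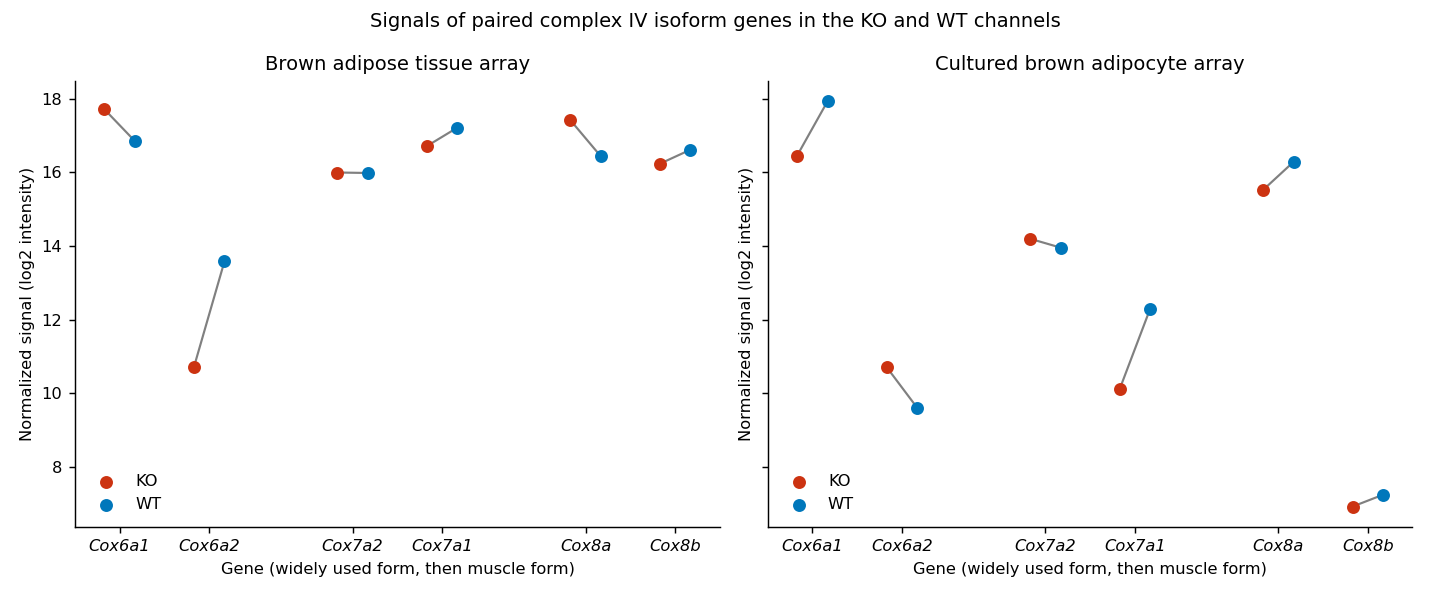
Normalized signal, as log2 intensity, of paired complex IV isoform genes in the KO (red points) and WT (blue points) channels of the tissue array (left) and the adipocyte array (right). Each point is 1 channel of 1 array, and for Cox7a2 it is the mean over 2 probes. Only points joined by a line share their probes and may be compared. Cox6a2 is lower in KO tissue and higher in the KO culture, and Cox7a1 is lower in the KO culture at 10.12 against 12.30 in WT.

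Complex V had medians of 0.15 in the tissue and -0.26 in the adipocytes. Its catalytic subunits were the lowest in the KO culture. Atp5b, the beta subunit that binds the nucleotide, was at -1.47 (SD 0.69 over 3 probes, at -2.05, -1.66 and -0.71), and Atp5a1, the alpha subunit, at -1.32 (SD 0.64 over 2 probes, at -1.77 and -0.87). All 5 of these probes were below 0, and the brighter ones of each gene read lower. Atp5g3, which encodes subunit c of the membrane ring, had a signal of 15.13 in the KO and 16.23 in the WT culture (-1.10). Its sister genes, which encode the same mature protein, did not share that value, as Atp5g1 was at 0.21 and Atp5g2 at 0.31. In the tissue Atp5g1 was the lowest of the complex (-0.68), Atp5g3 was at -0.07 and Atp5g2 at 0.11.

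The other ATP synthase genes were mostly below 0 in the KO culture and above 0 in KO tissue. Atp5c1, the gamma subunit of the rotor, was at -0.59 in the adipocytes and had 17.08 in KO and 16.27 in WT tissue (0.81). Atp5o, the stalk subunit that confers oligomycin sensitivity, was at -0.86 and 0.50, and Atp5e, the epsilon subunit, at -0.26 and 0.55. Atp5b and Atp5a1 were at 0.27 (SD 0.47 over 3 probes) and 0.17 (SD 0.35 over 2 probes) in the tissue, with probes of both signs. Atp5k was at -0.40 and Atp5f1 at -0.09 in the tissue, and Atp5j2 at 0.02 in the adipocytes. Of the 15 genes, 5 were below 0 in the tissue, or 33.3%, against 49.5% of all genes. In the adipocytes 12 were, or 80%, against 50.2%. The tissue median of complex V depended on the processing. It was 0.75 without loess, with the genes kept centred, and -0.093 with Feature Extraction's ratios.

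Across the complexes, the 22 subunits of a list of core and main structural subunits, called core here (the 7 of complex I, all of complex II, Cyc1, Uqcrfs1, Uqcrc1, Uqcrc2, Cox4i1, Cox5a, Cox5b, Atp5a1, Atp5b, Atp5c1 and Atp5o) were all below 0 in the KO culture, with a median of -0.60, and 6 of them were at least 2-fold lower. Without the 3 complex IV genes, which lie around its catalytic core, the median was -0.59 and 5 of 19 were at least 2-fold lower. Of the 55 accessory subunits kept, 37 were below 0, with a median of -0.17 (-0.041 with Feature Extraction's ratios, -0.60 without loess), and 3 were at least 2-fold lower (Cox6a1, Atp5g3 and Ndufb10). In the tissue 13 of 21 core genes were below 0 (median -0.12) and 32 of 55 accessory genes (median -0.03). Among all genes kept, 49.5% were below 0 in the tissue and 50.2% in the adipocytes, where 4.17% were at least 2-fold lower. The core list was drawn up with earlier results of these data known, and core and accessory genes were not tested against each other.

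Set side by side, 79 chain genes were measured on both arrays. Below 0 on both were 35, or 44.3%, against 24.8% of 14275 genes, and above 0 on both were 6, or 7.59%, against 25%. That count depended on loess: without it, with the genes kept centred, 12 chain genes were below 0 on both, or 15.2%, against 18.7% of all genes, and 9 were above. With spots centred 5 were below 0 on both and 1 above. Since KO was red on one array and green on the other, a gene below 0 on both was lower in KO in either dye. After loess these genes included all of complex II, Cycs, Uqcrc1, Uqcrc2, Uqcrfs1, Ndufab1, Ndufs1, Ndufs3, Ndufs7, Ndufs8 and Ndufv2. No chain gene was at least 2-fold lower on both. Single arrays had 2.44% of all genes at least 2-fold lower in the tissue and 4.17% in the adipocytes. The share of all genes at least 2-fold lower on both was not counted, so the absence of chain genes there is not read as a trait of the chain. Opposite signs were seen for 38 genes, or 48.1%, against 50.2% of all genes. Of these, 25 were higher in the red dye on both arrays, among them Cox6a1, Cox8a, Cox4i1, Atp5c1, Atp5o, Ndufb9 and Ndufc2, and 13 were higher in the green dye on both. For these genes dye and genotype cannot be told apart. How the genes of opposite sign among all 14275 split between the dyes was not counted, so the 25 and 13 have no background here.

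Over the 79 genes the ratios of the arrays ran against each other, with a Pearson r of -0.37 and a Spearman rho of -0.24, and r was -0.31 without the muscle isoforms. With Feature Extraction's ratios the same genes gave an r of -0.23 and a rho of -0.10. For complex IV alone r was -0.63 over 13 genes. Over all 14275 genes r was 0.00, and over the 1943 genes in the brightest 20% of both arrays it was -0.041. Over 64 cytosolic ribosomal protein genes it was -0.37, and over 51 mitochondrial ribosomal protein genes 0.10. Genes of one array share its RNA and dyes and are not independent replicates. Within the chain, brightness and ratio correlated at 0.34 in the tissue and at -0.27 in the adipocytes. The mean of a gene's ratios on the arrays had a median of -0.24 over the chain and 0.01 over all genes. By complex that median was -0.23 for I, -0.39 for II, -0.36 for III, -0.19 for IV and -0.12 for V. These means were taken after loess only. Without loess, with the genes kept centred, the chain medians were 0.39 in the tissue and -0.50 in the adipocytes. Those of complex V were 0.75 and -0.45.

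**Figure D3:**
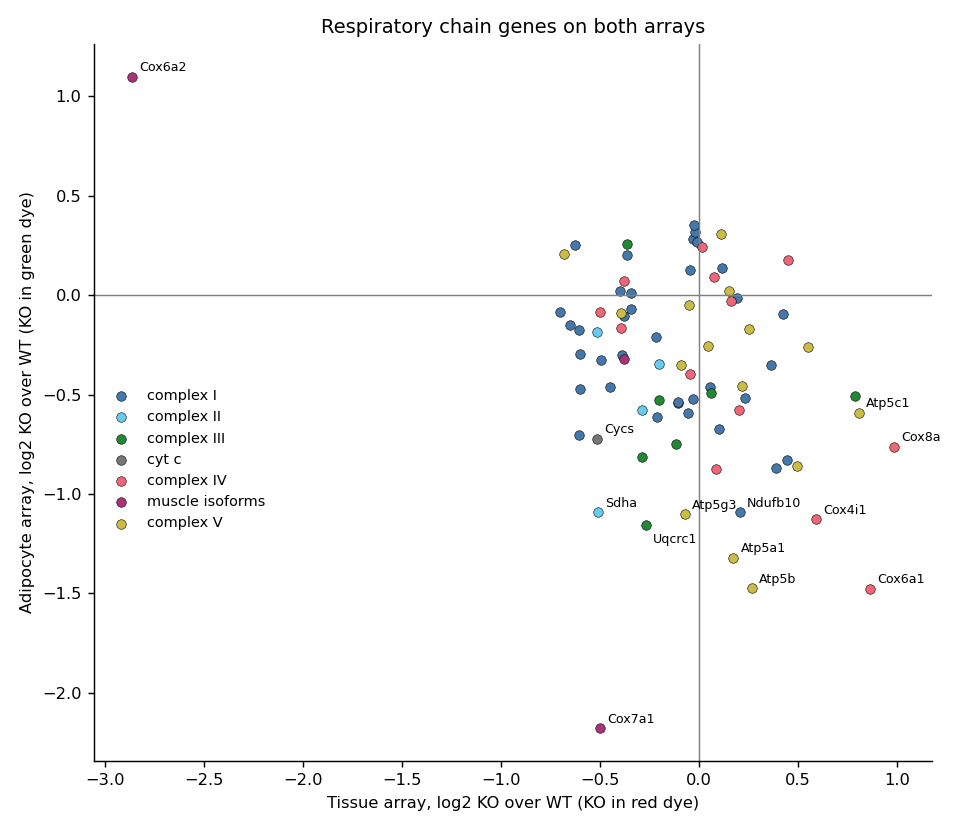
Log2 ratio of KO over WT of each respiratory chain gene, with the tissue array on the horizontal axis and the adipocyte array on the vertical axis. Each point is 1 of 79 genes coloured by complex, and grey lines mark 0. The lower left holds the 35 genes below 0 on both arrays. The lower right holds the 25 genes higher in the red dye on both, a split not counted over all genes.

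Genes that feed, assemble or regulate the chain were given the same counts. Among all genes kept, 49.5% were below 0 in the tissue and 50.2% in the adipocytes, and 2.44% and 4.17% were at least 2-fold lower. Of 18 genes of electron entry and quinone synthesis kept on each array, 11 were below 0 in the tissue (median -0.28) and 16 in the adipocytes (median -0.66). Gpd2, the mitochondrial glycerol phosphate dehydrogenase that passes electrons to ubiquinone, was at least 2-fold lower on both arrays, with 11.92 in KO and 13.60 in WT tissue (-1.68, SD 0.13 over 2 probes) and 9.48 in the KO and 10.84 in the WT culture (-1.36, SD 0.13 over 2 probes). Aifm2, a reductase of ubiquinone, was at -1.32 in the adipocytes and 0.68 in the tissue. The electron transfer flavoprotein gene Etfb was at -0.93 and 0.91, again higher in red on both arrays.

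Of 40 assembly factors, 33 were below 0 in the tissue (median -0.22) and 23 in the adipocytes (median -0.15). These are 82.5% and 57.5%, against 49.5% and 50.2% of all genes. At least 2-fold lower was 1 of 40 on each array, or 2.5%, against 2.44% and 4.17% of all genes. Atpaf2, which helps assemble the catalytic part of ATP synthase, was the 1 factor at least 2-fold lower on each array, at -1.08 (SD 0.19 over 2 probes) in the tissue and -1.10 (SD 0.05 over 2 probes) in the adipocytes. Mitochondrial ribosomal protein genes, which serve translation of the mitochondrial subunits, had medians of -0.19 over 51 genes in the tissue and -0.05 over 52 in the adipocytes. Cytosolic ribosomal protein genes had 0.41 and 0.08 over 65 genes each.

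Among 8 genes of proton leak and ATP synthase partners, medians were -0.43 and -0.35. Ucp1 had 15.63 in KO and 17.47 in WT tissue (-1.84) and 7.20 in the KO and 10.98 in the WT culture (-3.78). Ucp3, a relative known from muscle and brown fat, was at -3.15 in the tissue. The ADP/ATP carrier Slc25a5 was at -1.25 in the adipocytes and 0.12 in the tissue, and its muscle form Slc25a4 at 0.04 and -0.50. Of 13 regulators of mitochondrial genes, none was at least 2-fold different in the tissue (median -0.14). On that array 2.44% of all genes were at least 2-fold lower and 0.80% at least 2-fold higher. Ppargc1a was at -0.35 and the receptor Esrra at -0.41 in the tissue. In the adipocytes 2 of 12 were at least 2-fold lower (median -0.20). They were the coactivators Ppargc1a (-2.31, SD 0.45 over 2 probes) and Ppargc1b (-2.61, SD 0.32 over 3 probes), with Esrra at -0.91, Nrf1 at -0.13, Gabpa at -0.34 and Tfam at 0.16.

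**Figure D4:**
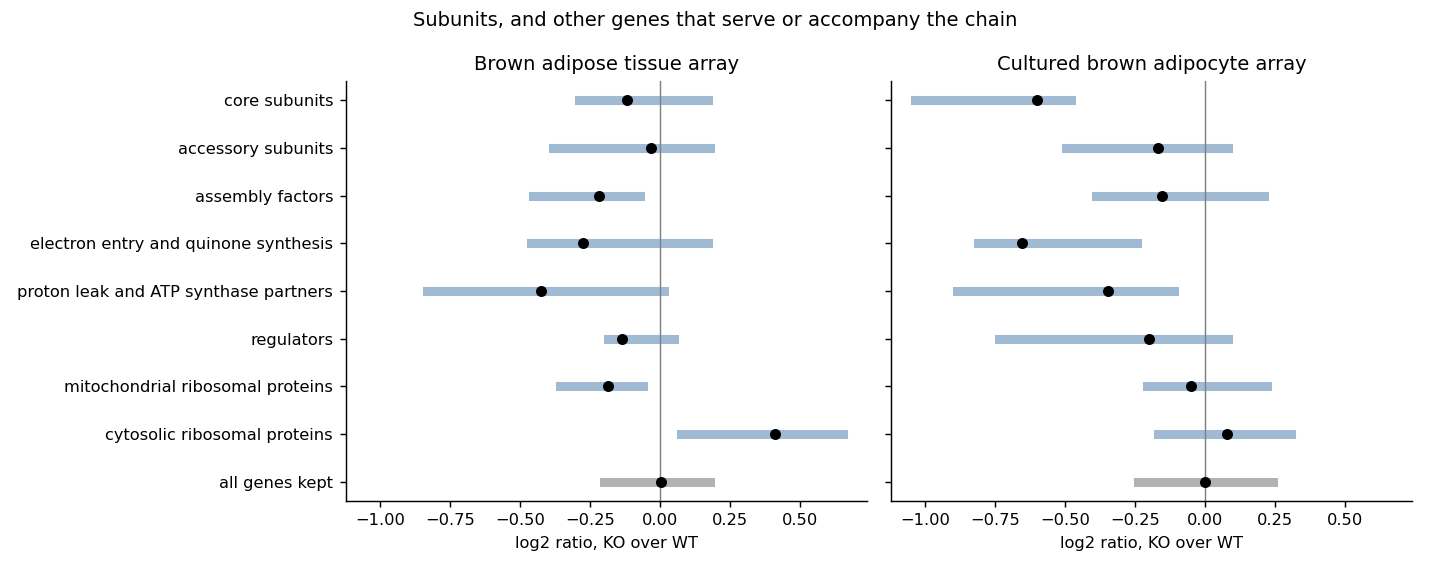
Log2 ratio of KO over WT of core and accessory subunits and of genes that accompany the chain, on the tissue array (left) and the adipocyte array (right). Points are medians over the genes of a list on 1 array and bars reach over the middle 50% of its genes, with all genes kept in grey at the bottom. Core subunits have a median of -0.60 in the adipocytes and -0.12 in the tissue.

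The direction of the chain in the tissue depended on the normalization. Without loess, its median was 0.39 in the tissue and -0.50 in the adipocytes when centred on the genes kept. The brightest 20% of all genes then had medians of 0.31 and -0.15. With the log ratios of Feature Extraction, the software of the scanner files, the chain median was -0.22 in the tissue and -0.29 in the adipocytes.

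**Figure D5:**
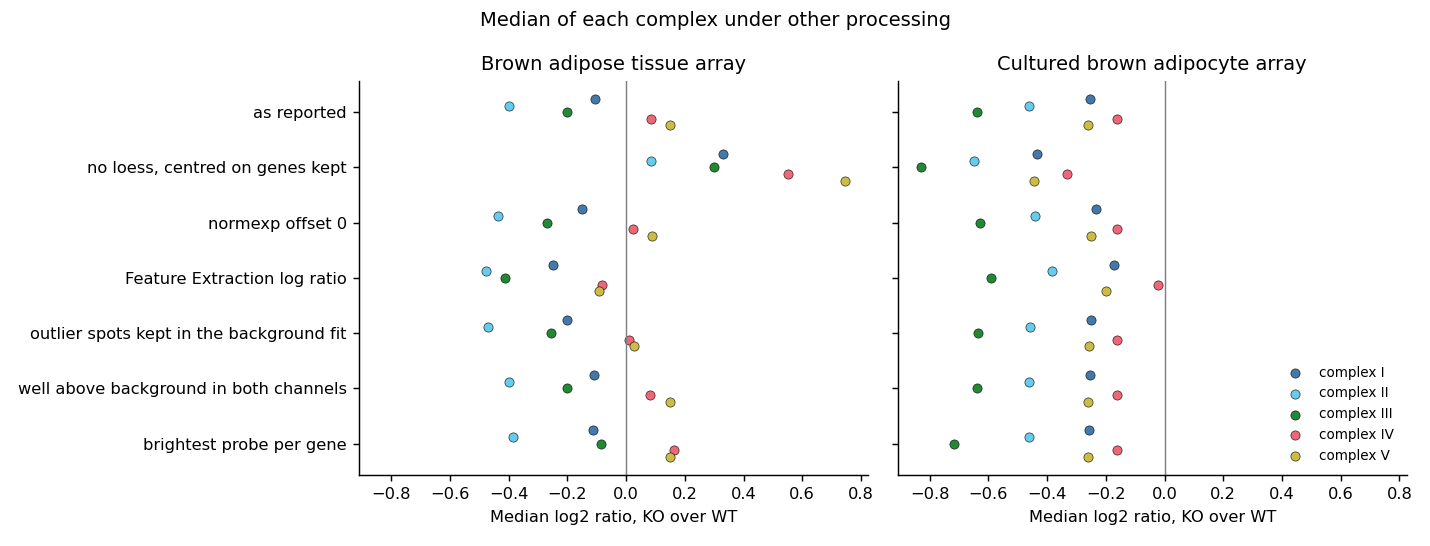
Median log2 ratio of KO over WT of each complex under other processing, on the tissue array (left) and the adipocyte array (right). Each point is the median over the genes of 1 complex on 1 array. All 5 complexes stay below 0 in the adipocytes under the settings drawn, whereas in the tissue all 5 lie above 0 without loess.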

How the data were processed

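Total RNA of KO and WT brown adipose tissue and of KO and WT brown adipocytes was extracted with Trizol and amplified with Agilent's low input kit, per the labels. Each pair was hybridised on 1 two-colour array. The scanner files deposited for each array hold intensity values per spot and a log10 ratio of red over green, both made by Agilent Feature Extraction 9.5.1.1 per the file headers, and the authors' deposited value table holds log10 ratios. All were used after conversion to log2 with KO over WT. Probe coordinates are not printed, as the sources used here do not name their genome build.

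Ratios were computed with limma 3.58.1 in R 4.3.3 from the mean signals. Of 45018 spots per array, 1639 were controls. Outlier flags removed 1215 gene spots in the tissue data and 203 in the adipocyte data. Normexp with an offset of 50 corrected the background, and loess, with controls at weight 0, normalized each array. Repeated spots were averaged. Probes well above background in at least 1 channel were kept and averaged per gene. The chain held 112 probes. Other genes were named from RefSeq (GRCm38.p6) by accession (22949 probes), symbol (6659) or synonym (3109), and 8455 probes matched none. Of the members, Atp5f1 and Uqcr are Atp5pb and Uqcr11 in RefSeq. Promoters come from RefSeq of the same build.

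The number of arrays limits the precision, no test was made, and genes were counted at 2-fold. The steps were tested on simulated data. The members and all lists were chosen with earlier results of these data known. Named were all members at least 2-fold different, the 3 lowest and highest per complex and array, isoform sets and core subunits, though not all of these are given on both arrays and 1 member's own values are not reported here. Ndufab1, and the genes of other lists, were picked after their values were seen.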

Additional observations from a re-analysis of the deposited data

Results flagged for a closer look

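Cox6a2 was at -2.86 on the tissue array and at 1.10 on the adipocyte array, so the KO channel was lower in one comparison and higher in the other. The difference was not tested, as each comparison has 1 array. Its green channel was the higher one on both arrays.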

How the results depend on the processing

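No paired analysis was possible because each comparison has 1 array, and the groups share fewer than 2 replicate numbers. No called value changed sign, and no sample could be left out. Normexp with offset 0, probes well above background in both channels, the median over probes and members chosen by RefSeq symbol moved none of the values or counts for the chain and its complexes beyond the spread of repeated spots or 1.5 times. Below, values are given for the tissue first and for the adipocytes second.

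Without loess, centred on all gene spots, the chain had 0.65 and -0.75, complex I 0.58 and -0.69, II 0.34 and -0.90, III 0.55 and -1.08, IV 0.81 and -0.59, and V 1.00 and -0.70. At least 2-fold higher were 18 and 0 chain genes, and 25 were lower in the adipocytes. Centring on the genes kept was added after seeing these data and gave 0.39 and -0.50 for the chain, 0.33 and -0.43 for I, 0.085 and -0.65 for II, 0.30 and -0.83 for III, 0.55 and -0.33 for IV, and 0.75 and -0.45 for V, with 8 and 0 chain genes at least 2-fold higher. Subtracting the spiked-in controls' shift (0.84 and 0.22, from every gene) gave -0.90 and -0.56 for the chain, -0.95 and -0.48 for I, -1.24 and -0.68 for II, -1.05 and -0.86 for III, -0.76 and -0.38 for IV, and -0.69 and -0.48 for V. Then 34 chain genes were at least 2-fold lower in the tissue, and none was higher in the adipocytes.

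Feature Extraction's log ratios and the authors' deposited table both gave, in the tissue, -0.22 for the chain, -0.25 for I, -0.41 for III and -0.082 for IV, with 1 gene at least 2-fold higher, and -0.023 for IV in the adipocytes. Complex V in the tissue had -0.093 with the first and -0.094 with the second. Outlier spots kept in the background fit gave 0.028 for V in the tissue, the brightest probe per gene -0.086 for III, and no brightness filter -0.26 for II. Spots also left out by the background population flag, a choice made after seeing the data, gave -0.0097 for V in the tissue and -0.60 for II and -0.54 for III in the adipocytes. The cause of these differences was not tested. Core subunits had medians between -1.06 and -0.55 in the adipocytes under all settings run, and between -0.96 and 0.63 in the tissue. Accessory subunits had -0.60 to -0.041 and -0.88 to 0.72.

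Single genes near 2-fold depended on the setting. Of 12 other settings in the adipocytes, Atp5g3 and Ndufb10 passed in 10 (both -0.98 with the deposited table), Sdha in 11 (-0.95 for its brightest probe) and Cox6a2 in 9 (0.68 without loess).

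Counts over all genes also moved. In the tissue, 125 genes passed 2-fold upwards and 381 downwards in KO, or 1402 and 950 with Feature Extraction's ratios, 672 and 409 without loess, 270 and 639 with the genes kept centred, 385 and 835 with offset 0, 38 and 71 with outlier spots kept, and 17 and 4576 by spiked-in controls. In the adipocytes 377 passed upwards and 631 downwards, or, in the order of those settings, 876 and 956, 194 and 1246, 421 and 765, 617 and 845, 377 and 630, and 205 and 974.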
